A study of Mus musculus with 6 samples.

Results

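The heat shock proteins and their co-chaperones were described in the vestibular epithelium of mice, as the protein-coding genes of the deposited table whose symbols begin with Hsp, with Dnaja, Dnajb or Dnajc and a number, or with Bag and a number. The extracellular proteoglycan gene Hspg2 was left out, since it shares only the first letters of its symbol. The rule found 80 genes among 22027 protein-coding genes and 52636 genes in all. The study exposed male 129S1/SvImJ mice to 30 mM 3,3'-iminodipropionitrile (IDPN), a nitrile that damages inner ear hair cells (HCs), in drinking water for 8 weeks, and kept Control mice on plain water. All animals were 2 to 4 months old at the start, and each of the 3 Control and 3 IDPN libraries pooled the 2 utricles and 6 cristae of 1 animal. The question was how gene expression in this epithelium differs after chronic ototoxic exposure.

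Chaperones bind unfolded stretches of other proteins and help them to fold, assemble, cross membranes or be degraded. HSP70 proteins do this in cycles of ATP hydrolysis: J proteins (the DNAJA, DNAJB and DNAJC families) deliver clients and trigger hydrolysis, and BAG proteins release the nucleotide. HSP90 proteins mature kinases and steroid receptors, small HSPs hold unfolded proteins in solution, and HSP60 with HSP10 folds proteins inside mitochondria. A subset of these genes is induced within minutes by heat and other protein-damaging stress through the transcription factor HSF1, which binds heat shock elements, inverted repeats of the letters GAA. In HCs, heat shock and induced HSP70 are known for protection against ototoxic drugs.

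Total estimated counts were 40474847 to 43566332 per library, and the values given here are those counts divided by the DESeq2 size factor of the library (normalized counts). The tissue label was checked on marker genes: all 10 HC markers and all 9 supporting cell markers were detected, with summed levels of 23229 to 26337 normalized counts for HC markers in Control and 14700.3 to 15658 in IDPN. A list of 8 skeletal muscle markers summed to 97 to 136 normalized counts per library. Control 3 and IDPN 2 stood apart from the other libraries of their groups. Control 3 held high levels of heat-inducible chaperones, and IDPN 2 held 493239 summed normalized counts of 12 immediate early genes against 6632 to 14044 in the other 5 libraries. The title codes of all 3 Control animals begin alike and those of the IDPN animals do not, so whatever this code stands for and the exposure cannot be told apart.

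Most members were expressed in this epithelium. Only Dnajb8, Dnajc5g and Hspb3 had no count in any library, and 65 of the 80 members had a mean of at least 100 normalized counts over the 6 libraries. Levels per kilobase of the longest coding transcript spanned from constitutive cytosolic chaperones, which led, to members at or near 0. Hspa8, the constitutive cytosolic HSP70, led with 78454 normalized counts per kilobase on average, and the cytosolic HSP90 genes Hsp90ab1 (60924) and Hsp90aa1 (29287) followed. The endoplasmic reticulum (ER) chaperones Hsp90b1 (25203) and Hspa5 (20746), also called GRP94 and BiP, came next. Hspb1, the small HSP also called HSP25 in mice, had 15106 normalized counts per kilobase, to which Control 3 gave the largest part. The mitochondrial HSP60 gene Hspd1 (3568), the cytosolic J proteins Dnaja1 (3453) and Dnaja2 (3055), and the mitochondrial HSP70 Hspa9 (3403) completed the 10 highest per kilobase. As a share of all estimated counts the members took 1.29%, 1.22% and 2.98% in Control 1, 2 and 3 and 2.10%, 1.90% and 1.57% in IDPN 1, 2 and 3, so that the highest share was in a Control library and all IDPN libraries lay above Control 1 and 2. On the scale of normalized counts the members summed to 659987, 595900.0 and 1150160 in Control and 721719, 829310 and 594725 in IDPN, where IDPN 3 lay below all Control libraries.

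Few members were called between IDPN and Control. DESeq2 called 2 members upregulated, Bag1 and Dnajc25, and 2 downregulated, Dnajb13 and Dnajc5b, of the 72 members with an adjusted p (Padj), where a call needs Padj under 0.05 and a fold change above 1.5. Among all 17650 genes with a Padj 2.32% were called upregulated and 3.42% downregulated, 5.75% together. Scaling by total counts turned this balance to 3.64% upregulated and 1.28% downregulated of 16712 genes, with Bag1 and Dnajc25 still called upregulated and, of the downregulated members, only Dnajb13. The median log2-Fold_Change (IDPN over Control) was -0.04 over the tested members and 0.02 over all tested genes, and total-count scaling moved these medians to 0.19 and 0.27. Of the 72 tested members 32 were higher and 40 lower in IDPN, and 54 were higher and 18 lower under total-count scaling. The libraries of both groups did not overlap for 12 of the 72 tested members, 16.7%, 3 with IDPN higher and 9 with IDPN lower, against 22.5% of all tested genes (11.1% with IDPN higher and 11.4% lower). The members' shares were near or under those of the table. The 3 heat-inducible members Hspa1a, Hspa1b and Hspb1 received no p-value because DESeq2's Cook's distance filter, which removes a gene when a single library dominates its fit, set them aside, and 5 further members were at 0 or too low to test.

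**Figure D1:**
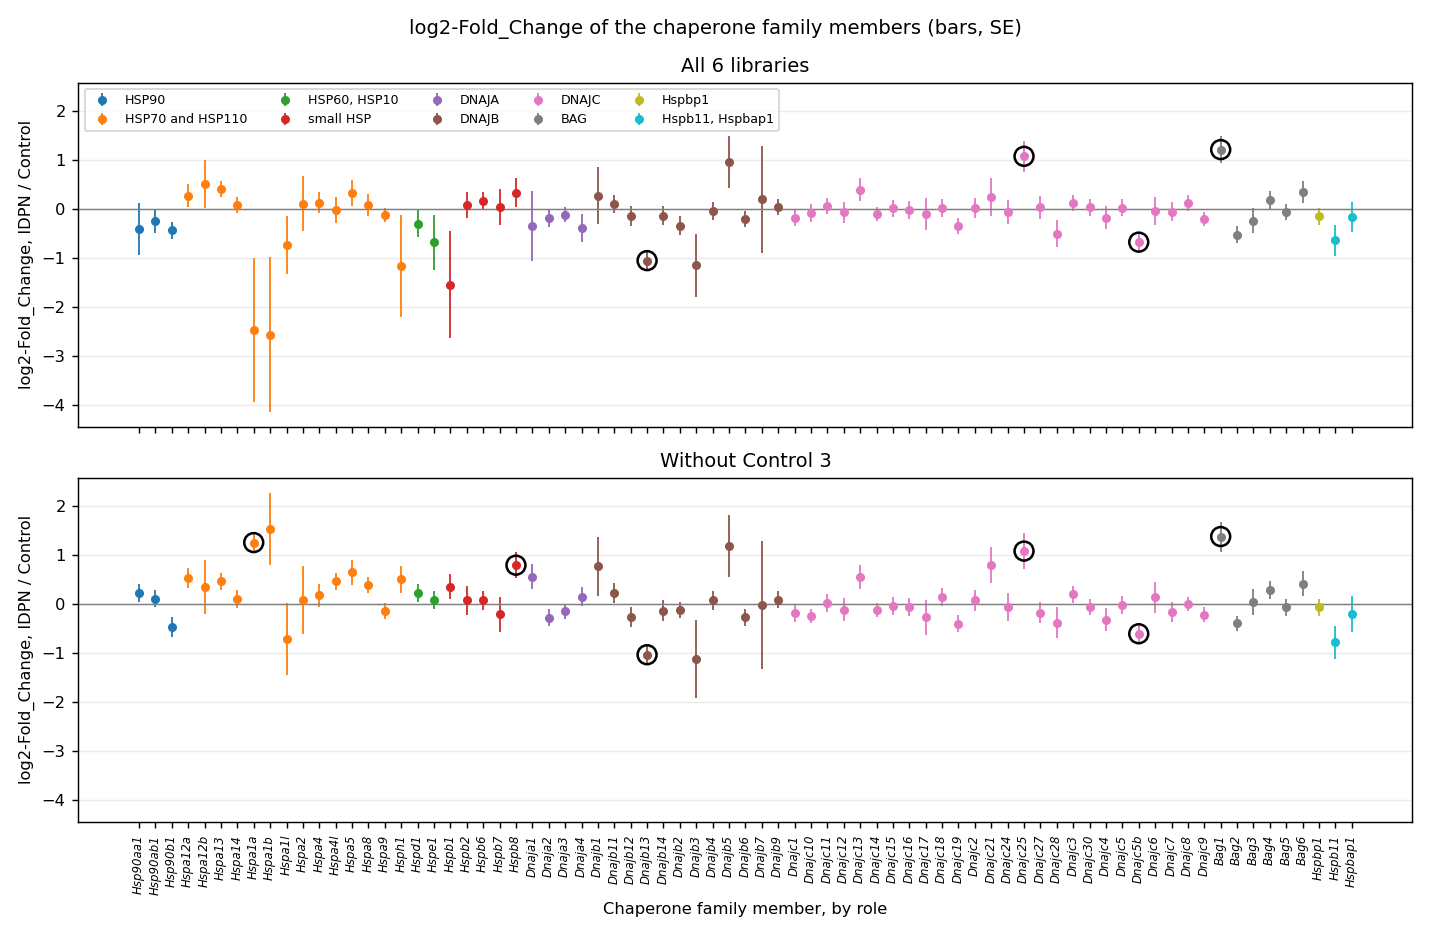
log2-Fold_Change of IDPN over Control (y axis, bars are the standard error) for 75 members ordered by role (x axis, colours), with all 6 libraries above and without Control 3 below; rings mark calls (Padj under 0.05, fold above 1.5). With all libraries Bag1, Dnajc25, Dnajb13 and Dnajc5b carry rings, and without Control 3 Hspa1a and Hspb8 join them while the points of the heat-inducible genes move above 0.

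Bag1, a nucleotide exchange factor of HSP70 that also binds BCL2, rose in IDPN mice. It had 246, 582 and 561 normalized counts in Control 1, 2 and 3 and 1044, 1018 and 1170.3 in IDPN 1, 2 and 3. Every IDPN library was above every Control library, with Control 1 the lowest. The log2-Fold_Change was 1.22 (SE 0.27, DESeq2 Padj = 0.000363), from 463 ± 188 (SD, n = 3) to 1077 ± 81.5 (SD, n = 3), and without Control 1 it was 0.91 (DESeq2 Padj = 0.000151). The gene lies at chr4:40936398-40948294 on the minus strand of GRCm38, and no exon of another gene overlaps it in GENCODE M21. Bag1 stayed a call when any library was left out and with edgeR on all libraries (adjusted p = 0.0452), but not with edgeR without Control 3 (adjusted p = 0.0574). In the edgeR fit of all libraries 1.02% of genes were called upregulated and 2.19% downregulated.

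Dnajc25, a membrane J protein, had 65.5, 56.6 and 61.4 normalized counts in Control and 106, 149.6 and 133 in IDPN. The groups did not overlap at this low level. The log2-Fold_Change was 1.08 (SE 0.31, DESeq2 Padj = 0.0148), and it missed the threshold with edgeR (adjusted p = 0.0619) and in DESeq2 without IDPN 2 (Padj = 0.133), IDPN 3 (0.0886) or Control 2 (0.0816). It also missed it without Control 3 and IDPN 2 (DESeq2 Padj = 0.176) and with edgeR without Control 3 (adjusted p = 0.0918). Its exons overlap those of the readthrough model Gm20503 on the same strand, so the split of reads between both is uncertain.

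Dnajb13, a J protein of the radial spokes of motile cilia and sperm flagella, fell in IDPN mice. It had 1102, 1289 and 1238 normalized counts in Control and 554, 644 and 558 in IDPN. All IDPN libraries lay at a similar level, far under the lowest Control library. The log2-Fold_Change was -1.05 (SE 0.17, DESeq2 Padj = 1.13e-07), from 1209.8 ± 96.5 (SD, n = 3) to 585 ± 50.4 (SD, n = 3). It was the member called in every alternative that was run, edgeR without Control 3 included (adjusted p = 0.0153). The libraries carry no strand information, and exons of Ucp2 overlap Dnajb13 (chr7:100501716-100514960) on the opposite strand, so reads of the overlap cannot be assigned.

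The other ciliary member, Hspb11, an intraflagellar transport subunit also known as IFT25, had 124, 137 and 94.3 normalized counts in Control and 74.5, 77.3 and 76.5 in IDPN. Every IDPN library was under every Control library, yet the log2-Fold_Change of -0.64 (SE 0.31) did not pass (DESeq2 Padj = 0.259). A list of 16 other motile cilium genes summed to 14011, 14016 and 15638 normalized counts in Control and 9262, 9516 and 8786 in IDPN. The 10 HC markers summed to 23229, 26155 and 26337 in Control and 15463, 15658 and 14700.3 in IDPN, with none of the 10 at 0. In the same libraries 9 supporting cell markers summed to 400571, 317247 and 274798 in Control and 190801, 234717 and 201290.0 in IDPN, and 6 neuron markers to 5123, 4916 and 5113 and 3101, 3402 and 3244, with no marker of either list at 0. For all 4 sums, as for Dnajb13, the IDPN libraries lay under the lowest Control library, and their part in the result was not tested. Gjb2 and Gjb6 made up most of the supporting cell sum. Log2-Fold_Changes were above 0 for the supporting cell markers Hes1 (0.82), Lgr5 (0.80) and Sox9 (0.12) and the HC marker Myo7a (0.01). They were also above 0 for the cilium genes Hydin (0.26) and Dnah11 (0.31) and the neuron marker Prph (1.51). The other genes of these lists had values below 0. In bulk tissue fewer cells of a type and less RNA per cell cannot be told apart.

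Dnajc5b, a relative of the synaptic vesicle J protein Dnajc5 (cysteine string protein), had 973, 978 and 1115 normalized counts in Control and 669, 719.9 and 538 in IDPN. The groups did not overlap. It was downregulated (log2-Fold_Change -0.67, SE 0.18, DESeq2 Padj = 0.00756), and the call was lost with total-count size factors (log2-Fold_Change -0.44, Padj = 0.323), without IDPN 3 (-0.56, Padj = 0.0677) or with edgeR without Control 3 (-0.59, adjusted p = 0.0828). The gene 1700064H15Rik overlaps its exons on the opposite strand. Dnajc5 itself had 2977, 3142 and 2765 normalized counts in Control and 2869, 3654 and 2578 in IDPN, with overlapping groups and a log2-Fold_Change of 0.03 (DESeq2 Padj = 0.959).

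**Figure D2:**
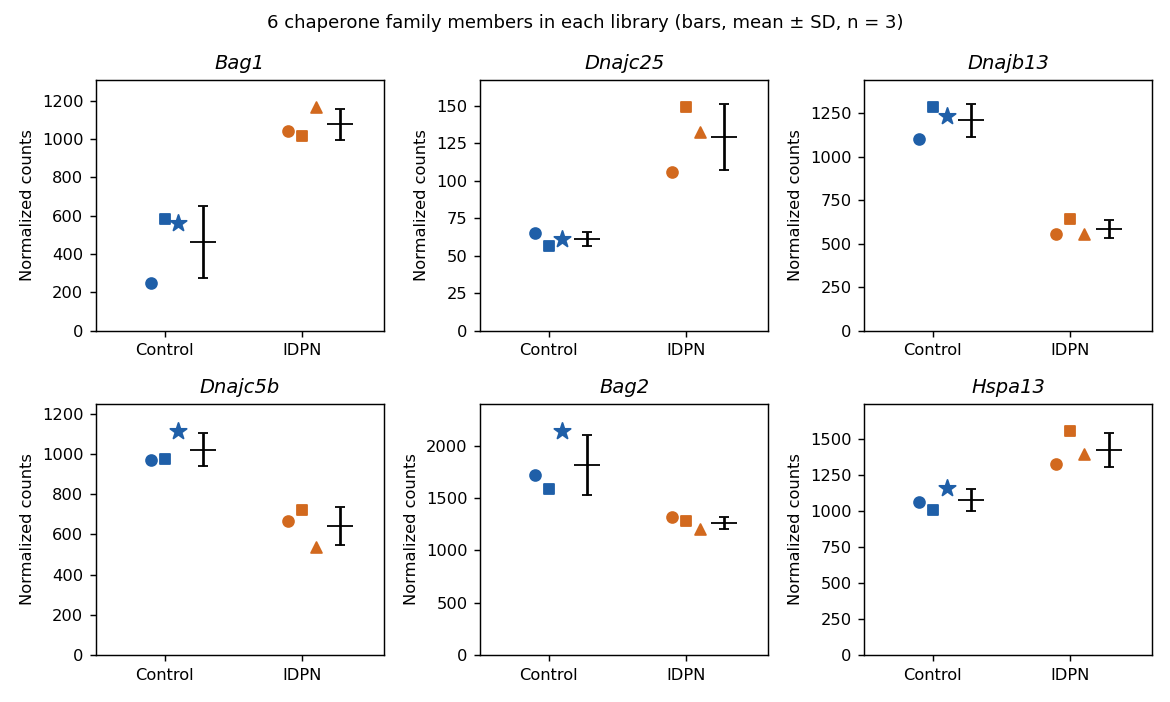
Normalized counts (y axes, from 0) of 6 members in each library, Control in blue and IDPN in orange, with circles for replicate 1, squares for replicate 2, and a star (Control) or a triangle (IDPN) for replicate 3; bars give the mean and SD of 3 libraries. Bag1, Dnajc25 and Hspa13 lie higher and Dnajb13, Dnajc5b and Bag2 lower in all IDPN libraries, and Bag2 and Hspa13 were not called.

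The spread inside the Control group was larger than these differences for the heat-inducible genes. In Control 3, 12 of the 65 members with a mean of at least 100 normalized counts lay at least 2-fold above the mean of Control 1 and 2 (18.5%), against 1.24% of the 11770 genes of that level. These were Hspa1a, Hspa1b, Hspa4l, Hsph1, Hsp90aa1, Hspb1, Hspb8, Hspd1, Hspe1, Dnaja1, Dnaja4 and Dnajb1, of which 10 belong to a list of 13 heat-inducible members. That list was chosen with earlier results of these data known, so the overlap is a description and not independent support. The list includes Hspa8 and Hsp90ab1, which are also expressed constitutively. No member lay 2-fold below in Control 3, as 0.552% of the genes did. By the same measure no member lay 2-fold above the rest of its group in Control 1, Control 2, IDPN 1 or IDPN 3, where 0.17%, 0.297%, 0.289% and 0.348% of the genes did. Dnajb1 and Hspa2 did in IDPN 2, with 1.87% of the genes.

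Hspa1b, Hspa1a and Hspb1 ranked 1, 2 and 3 of all 11770 genes by this ratio. Hspa1a, the inducible cytosolic HSP70, had 709.5, 679.8 and 26026 normalized counts in Control and 1808, 1595 and 1573 in IDPN. Its copy Hspa1b had 12.1, 10.4 and 547 in Control and 48, 19.1 and 29.9 in IDPN. Control 3 thus held 37.5 and 48.6 times the mean of the other Control libraries, while the IDPN libraries lay between. The coding sequences of both genes are nearly the same, so the estimated split of reads between them is uncertain, and their sum was 722, 690.2 and 26573 in Control and 1856, 1614 and 1603 in IDPN.

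Hspb1 had 4803, 6376 and 51585 normalized counts in Control and 7935, 8988 and 4605 in IDPN, which put Control 3 at 9.23 times the mean of Control 1 and 2. Hsph1, the HSP110 that exchanges nucleotide on HSP70 and ranked 5, had 5135, 4535 and 36168 in Control and 9801, 6249 and 4523 in IDPN. Control 3 was again far above all, and IDPN 1 was the highest IDPN library. Dnaja1, a farnesylated J protein that partners HSP70 and ranked 14, had 13194, 10074 and 41726 in Control and 17662, 22089.6 and 11733 in IDPN. Hspe1, the mitochondrial HSP10, had 1319.6, 1789 and 4775 in Control and 1795, 1585 and 1568 in IDPN, and Hspd1, its HSP60 partner, had 6587, 6693 and 15296 in Control and 8799, 8161 and 6334 in IDPN. The groups overlapped for each of these genes, with Control 3 above all IDPN libraries. Control 3 had 43362664 estimated counts, and its immediate early genes summed to 6884 normalized counts, near the lowest of the 6 libraries. A list of 6 stromal markers, none at 0, summed to 20441 normalized counts in Control 3 and to 30372 to 39051 in the other 5 libraries. Most of this sum was Dcn, with 14674 in Control 3. Dcn, Lum and Col1a2 were lowest in Control 3 of the 6 libraries, and Col1a1, Col3a1 and Pdgfra were not. The part of these markers in the chaperone values was not tested.

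The abundant cytosolic chaperones had smaller ratios in Control 3, 2.66 for Hsp90aa1, 1.85 for Hsp90ab1 and 1.7 for Hspa8. Hsp90aa1, the stress-inducible HSP90, had 75271, 65838 and 187781 normalized counts in Control and 93718, 85893 and 68041 in IDPN, and the constitutive Hsp90ab1 had 140350.0, 119348 and 239698 in Control and 149336, 152314 and 120125 in IDPN. Hspa8 had 151158, 144815 and 250921 in Control and 185359, 225979 and 168687 in IDPN. Control 3 was the highest of the 6 libraries for 11 of the 13 heat-inducible members. The exceptions were Dnajb1, the HSP40 that primes HSP70 for disaggregation, and Hspb8, a small HSP that works with BAG3 in selective autophagy, which were highest in IDPN 2. Dnajb1 had 1949, 1593 and 3958 normalized counts in Control and 1699, 4901 and 2455 in IDPN, and Hspb8 had 1692, 1535 and 3433 in Control and 2289.9, 3979 and 2132 in IDPN. Bag3 itself had 2350.5, 2542 and 4001 in Control and 1979, 3643 and 1951 in IDPN, with Control 3 and IDPN 2 above the rest.

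**Figure D3:**
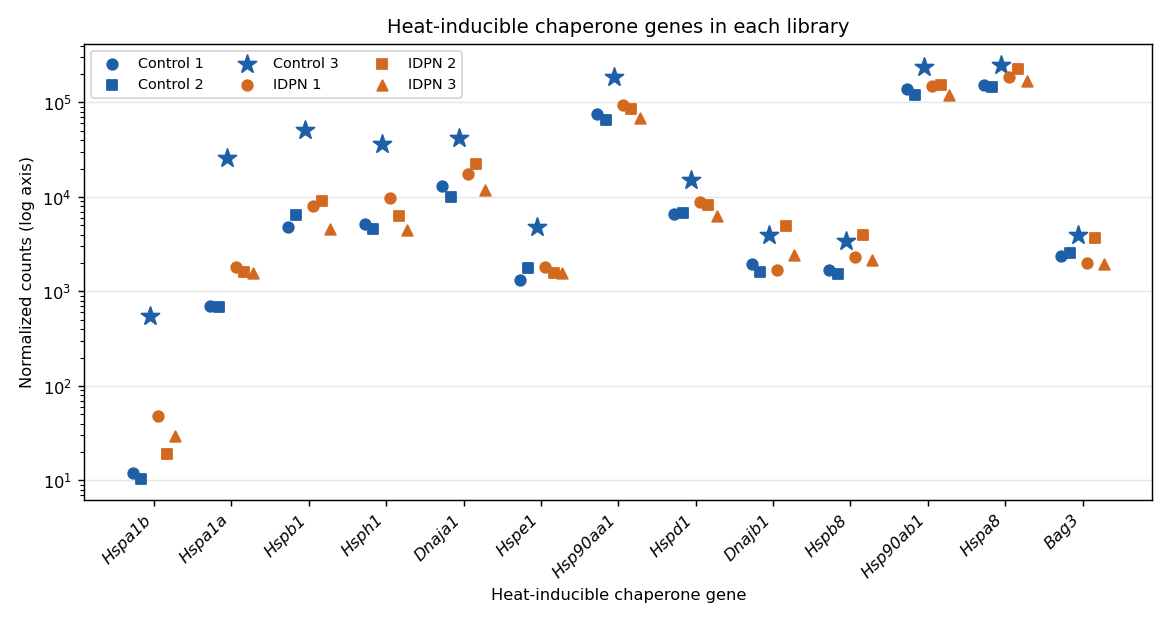
Normalized counts (log axis) of the 13 heat-inducible members in each library, ordered from left to right by the ratio of Control 3 (blue star) to the mean of Control 1 and 2; IDPN libraries are orange. The star is the highest point for 11 of the 13 genes, and for Hspa1a the 3 IDPN libraries lie between it and the remaining Control libraries.

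Promoter windows were read for the members to describe what the genes high in Control 3 share, and the stretches shown are those of the genes with the largest ratios that hold the searched letters before the RefSeq start. The windows cover 250 bases before to 50 after a RefSeq transcript start (GRCm38.p6), and 65 of the 80 members have one. The core of a heat shock element was searched as GAANNTTC, which reads the same on both strands and is shown in capitals. Positions count from the transcript start, from -140 to -61 in Hspa1a and Hspa1b, -153 to -54 in Hspb1, -94 to -67 in Hspe1 and -134 to -107 in Dnaja1.
Hspa1a, chr17:34972217-34972296, minus strand: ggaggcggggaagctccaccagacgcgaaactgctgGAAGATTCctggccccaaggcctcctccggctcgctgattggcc
Hspa1b, chr17:34959299-34959378, minus strand: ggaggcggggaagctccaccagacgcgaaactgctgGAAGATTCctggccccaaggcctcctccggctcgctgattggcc
Hspb1, chr5:135887766-135887865, plus strand: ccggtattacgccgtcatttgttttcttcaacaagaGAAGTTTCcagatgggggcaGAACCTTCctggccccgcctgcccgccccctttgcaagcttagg
Hspe1, chr1:55088054-55088081, plus strand: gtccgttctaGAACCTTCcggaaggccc
Dnaja1, chr4:40722334-40722361, plus strand: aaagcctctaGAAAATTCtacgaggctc
The Hspa1a and Hspa1b stretches are the same, and their whole windows are identical at 296 of 300 positions. In GENCODE M21 the Hspe1 stretch overlaps an annotated exon of Hspd1, which runs on the opposite strand, and the Dnaja1 stretch overlaps exons of Dnaja1 itself and Gm6297, so that it lies after an annotated start of Dnaja1. The Hspb1 stretch holds the core at 2 places, and the Hspe1 and Hspd1 windows overlap on opposite strands and hold the same match.

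The core occurred in the windows of 15 of 65 members (23.1%), against 9.04% of the 27025 genes with a window. It occurred in 9 of the 10 heat-inducible members with a window, all but Dnajb1; Hsp90aa1, Hsp90ab1 and Hspa8 had none in the table. Among members with a mean of at least 100 normalized counts, 9 of 13 with the core lay at least 2-fold above in Control 3 (median log2 ratio 1.21), against 2 of 38 without it (median log2 ratio 0.04) and 1 of 14 with no window. Both counts of 9 include Hspa1a and Hspa1b, whose windows are nearly the same, and Hspd1 and Hspe1, which hold the same match. They are thus not counts of separate promoters. In Hspb8 and Hsph1, also in both counts, the core lies only after the transcript start. Members with the core that did not stand out in Control 3 included Dnajb6, Dnajc27 and Hspb6, with log2 ratios of -0.22, -0.75 and -0.28. A longer form on either strand, the core followed after NN by a further GAA, occurred in 0.662% of genes and in 4 members, Hspd1, Hspe1, Hsph1 and Dnajb6. The reverse arrangement TTCNNGAA, which also reads the same on both strands and overlaps the longer form, occurred in 9.60% of genes and 6 members. A match is a description of letters in the window and was not tested as a binding site.

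**Figure D4:**
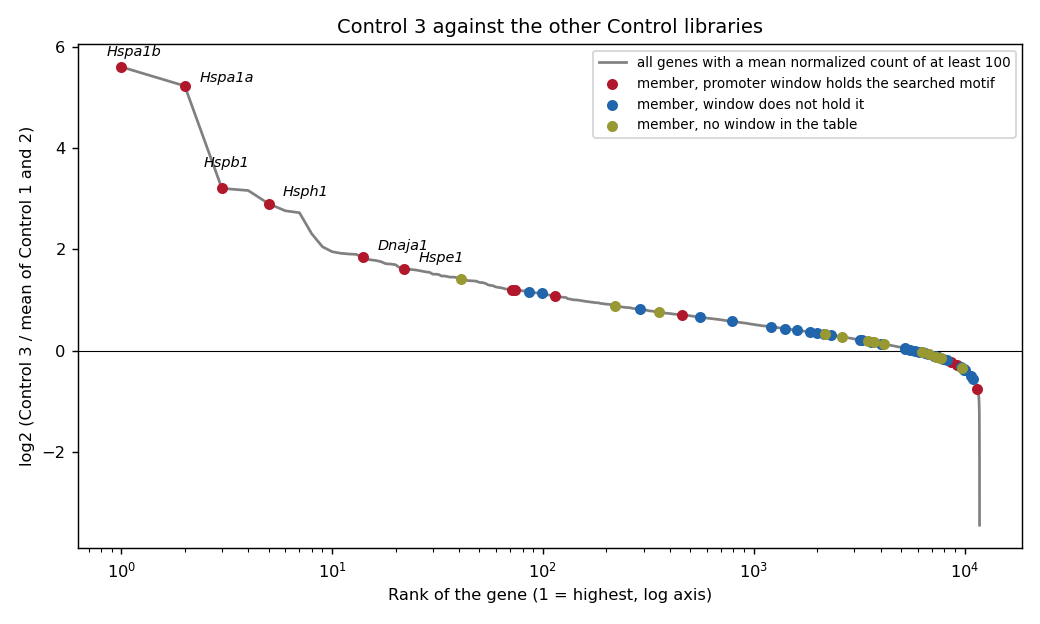
log2 ratio of Control 3 to the mean of Control 1 and 2 (y axis) against the rank of the gene (x axis, log scale) for 11770 genes (grey line), with the 65 members as points coloured by whether their promoter window holds the heat shock element core. Hspa1b, Hspa1a and Hspb1 rank 1 to 3, and most points in the upper left are members with the core.

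Leaving out Control 3 changed the direction of the heat-inducible group. With all libraries 7 of the 10 tested heat-inducible members had a negative log2-Fold_Change (median -0.27, and 7 of 10 also under total-count scaling) and none was called; 0 had an unadjusted p under 0.05 in DESeq2, and edgeR gave that for 0 of the 13 and called 0. Without Control 3 all 13 were tested and all 13 had a positive value (median 0.39). The median of that fit over the genes tested with all libraries was 0.03. In the fit without Control 3, 2 of the 13 were called upregulated, Hspa1a and Hspb8, against 3.82% of all genes tested in it called upregulated and 4.5% downregulated. Control 1 and 2 were both under all IDPN libraries for 4 of the 13, Hspa1a, Hspa1b, Hspa8 and Hspb8, and for 20.1% of the 11770 genes with a mean of at least 100 normalized counts. Control 3 stood apart in these same genes, so the fit without it is a description of what remains and is not independent support for a difference.

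For Hspa1a the log2-Fold_Change was -2.46 (SE 1.46, no p-value) with all libraries and 1.26 (SE 0.17, DESeq2 Padj = 7.73e-12) without Control 3. With the Cook's distance filter off, all libraries gave a DESeq2 Padj of 0.405. Without Control 3 it was also called by edgeR (adjusted p = 0.00553), and by DESeq2 without Control 3 and IDPN 2 (log2-Fold_Change 1.28, Padj = 1.36e-09). Hspa1b had 1.53 (SE 0.74, DESeq2 Padj = 0.191) without Control 3 and was not called. Hspb8 had 0.80 (SE 0.26, DESeq2 Padj = 0.0304) without Control 3. The call was lost with edgeR without Control 3 (0.80, adjusted p = 0.134). It was also lost in DESeq2 when IDPN 2 was left out as well (0.46, Padj = 0.0634). The other 10 heat-inducible members lay between 0.05 (Bag3) and 0.77 (Dnajb1) on the log2-Fold_Change scale without Control 3, and none of them was called.

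**Figure D5:**
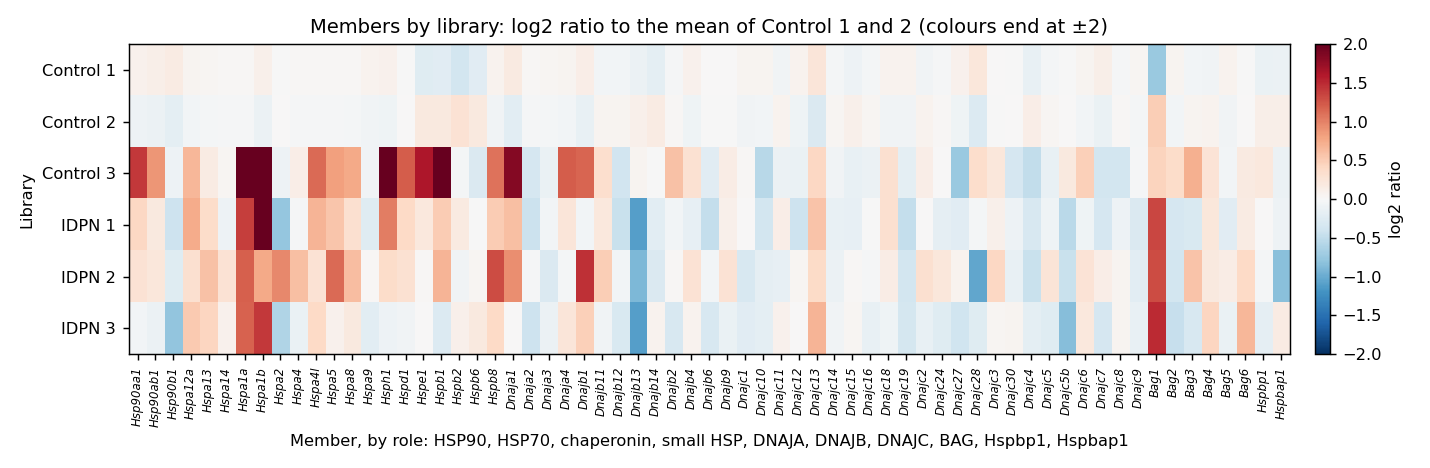
log2 ratio of each library (rows) to the mean of Control 1 and 2 for the 65 members with a mean of at least 100 normalized counts (columns, by role), with red higher and blue lower and colours ending at 2 and -2. Control 3 is red over the heat-inducible members, Bag1 is red and Dnajb13 blue in all 3 IDPN rows, and Hspa1a is red in Control 3 and in all IDPN rows.

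None of the 10 ER members was called, where 5.75% of all tested genes were, and with 10 genes this count says little. Of the 10, 5 were higher and 5 lower (median log2-Fold_Change -0.02), and 9 were higher and 1 lower under total-count scaling. In DESeq2 2 had an unadjusted p under 0.05, Hsp90b1 and Hspa13, and edgeR called 0. Hspa5 had 54907, 52814 and 95374 normalized counts in Control and 79319, 117614 and 57050.5 in IDPN, highest in IDPN 2 and then in Control 3, and the log2-Fold_Change was 0.32 (SE 0.26, DESeq2 Padj = 0.61). Hsp90b1 had 94214, 73109.8 and 78078 in Control and 62539, 71030.0 and 48220.2 in IDPN, so that Control 3 was not raised and every IDPN library was under every Control library. Its log2-Fold_Change was -0.43 (SE 0.18, DESeq2 Padj = 0.159), and it became a downregulated call, -0.59 (Padj = 0.0133), without Control 3 and IDPN 2, where 3.06% of genes were called upregulated and 5.48% downregulated. Hspa13, a microsomal HSP70, had 1058, 1005 and 1160.2 in Control and 1324, 1553 and 1391 in IDPN, with no overlap, and its log2-Fold_Change was 0.40 (SE 0.16, DESeq2 Padj = 0.13). Beside these, 8 genes of the integrated stress response summed to 20278 normalized counts in IDPN 2 and to 6741 to 7834 in the other 5 libraries. Asns and Trib3 were not highest in IDPN 2, and the other genes of this list were. Their part in the Hspa5 value of IDPN 2 was not tested.

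Hspa5, Hsp90b1 and Dnajc3, the ER J protein that restrains the kinase PERK, were the only members whose windows hold an ER stress element, searched on both strands as CCAAT and CCACG with 9 bases between them and present in 0.137% of genes. They are 3 of the 10 ER members and are shown because 0 of the 10 heat-inducible members with a window hold this element. The Hspa5 stretch overlaps an annotated exon of Hspa5 in GENCODE M21. Capitals mark the match, which reads in reverse in Hsp90b1, where a further match lies outside the stretch. Positions run from -70 to -43 in Hspa5, -130 to -66 in Hsp90b1 and -141 to -51 in Dnajc3.
Hspa5, chr2:34772020-34772047, plus strand: cttcaCCAATCGGAGGCCTCCACGacgg
Hsp90b1, chr10:86705510-86705574, minus strand: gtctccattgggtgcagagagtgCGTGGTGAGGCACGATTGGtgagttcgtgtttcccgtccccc
Dnajc3, chr14:118937791-118937881, plus strand: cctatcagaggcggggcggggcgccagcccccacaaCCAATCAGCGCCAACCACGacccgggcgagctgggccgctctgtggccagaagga
Control 3 differed from the mean of Control 1 and 2 by log2 ratios of 0.82 in Hspa5, -0.10 in Hsp90b1 and 0.22 in Dnajc3, all under the 2-fold limit. Dnajc3 had 4850.1, 4795 and 5613 normalized counts in Control and 5194, 6422 and 4979.7 in IDPN, with a log2-Fold_Change of 0.12 (DESeq2 Padj = 0.8).

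The J proteins of the ER lumen were not called. Dnajb9, which binds the stress sensor IRE1, had 5629.9, 5532 and 6168 normalized counts in Control and 5983, 6805 and 5092 in IDPN, and Dnajb11, a cofactor of Hspa5 for secretory proteins, had 2386, 2576 and 3120.1 in Control and 2862, 3491 and 2359 in IDPN. Dnajc10, a disulfide reductase, had 5038, 4695 and 3325 in Control and 3789, 4314 and 4269 in IDPN, with Control 3 the lowest of the 6 libraries. The groups overlapped for all 3 genes, and their log2-Fold_Changes were 0.04, 0.11 and -0.08 (DESeq2 Padj = 0.939, 0.858 and 0.903).

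None of the 8 mitochondrial members was called, where 5.75% of all tested genes were, and with 8 genes this count says little. Of the 8, 3 were higher and 5 lower (median log2-Fold_Change -0.11), and 5 were higher and 3 lower under total-count scaling. Dnajc19 alone had an unadjusted p under 0.05 in DESeq2, and edgeR called 0. Hspa9 had 11505, 10402 and 10466 normalized counts in Control and 9264, 11179 and 9444 in IDPN, with overlapping groups, and unlike Hspd1 and Hspe1 it was not raised in Control 3. Dnajc19, a J protein of the inner membrane import motor, had 1102, 998 and 921 in Control and 756, 815 and 821 in IDPN. No IDPN library reached the lowest Control library, and the log2-Fold_Change of -0.34 (SE 0.17) did not pass (DESeq2 Padj = 0.273). Hspe1 became a downregulated call when Control 1 was left out (-0.997, DESeq2 Padj = 0.0493), which leaves Control 3 as 1 of 2 Control libraries, and was 0.09 (Padj = 0.855) without Control 3.

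Among the HSP70 and HSP110 genes, Hspa2, known best for its role in spermatogenesis, differed inside the IDPN group. It had 4263, 4327 and 3994 normalized counts in Control and 2509, 8317 and 2816 in IDPN, so IDPN 1 and IDPN 3 were below all Control libraries and IDPN 2 was above them. Its log2-Fold_Change was 0.12 (SE 0.56, DESeq2 Padj = 0.956) with all libraries and -0.66 (SE 0.16, Padj = 0.00216) without IDPN 2, a downregulated call in a fit that made such calls for 3.28% of genes. IDPN 2 was the library with the high immediate early genes, and their part in this result was not tested. Hspa12a, a distant HSP70 relative, had 507, 472 and 776 in Control and 818, 612 and 701 in IDPN and was called (0.64, DESeq2 Padj = 0.0376) only without Control 3 and IDPN 2. Hspa4l, an HSP110 relative, had 5036, 4848 and 10849 in Control and 7944, 6007 and 6489 in IDPN, with Control 3 highest and all IDPN libraries above Control 1 and 2, and was not called with all libraries (-0.02, Padj = 0.985) or without Control 3 (0.46, Padj = 0.0575). Hspa4, its constitutive relative, had 1941, 1894 and 2113 in Control and 1878, 2909.7 and 1749.8 in IDPN, and Hspa14, which works at the ribosome, had 1142, 1110.4 and 1163 in Control and 1055, 1383 and 1195 in IDPN. For both genes the groups overlapped and IDPN 2 was the highest library.

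J proteins were called in the DNAJB and DNAJC families and not in the DNAJA family, where with 4 tested members this count says little. All 4 tested DNAJA members had negative values, from -0.37 (Dnaja4) to -0.11 (Dnaja3), and there were 2 positive and 2 negative without Control 3 or under total-count scaling. None had an unadjusted p under 0.05 in DESeq2 or edgeR. Dnaja2 had 10324, 9986 and 8085 normalized counts in Control and 7552, 9974 and 7581 in IDPN, with overlapping groups. Of 12 tested DNAJB members Dnajb13 was called, and of 26 tested DNAJC members Dnajc25 and Dnajc5b. Among all 17650 tested genes 5.75% were called in either direction. The histone-binding J protein Dnajc9 had 1974, 1858 and 1876 in Control and 1569.9, 1662 and 1733 in IDPN, and Dnajc14 had 2088, 2188 and 2044 in Control and 1920.0, 1967 and 2034 in IDPN. Neither pair of groups overlapped, with log2-Fold_Changes of -0.20 (DESeq2 Padj = 0.545) and -0.09 (Padj = 0.831), and both values turned positive under total-count scaling.

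Members that act on clathrin coats and vesicles, where HC ribbon synapses recycle membrane, were not called, and none had an unadjusted p under 0.05 in DESeq2 or edgeR. Of all tested genes 5.75% were called in either direction. Dnajc13, an endosomal J protein, had 329.9, 229.7 and 371 normalized counts in Control and 416, 365 and 446 in IDPN, with a log2-Fold_Change of 0.40 and DESeq2 Padj = 0.393. Dnajc6, the neuronal uncoating factor auxilin, was low, at 122, 114 and 165 in Control and 112, 143 and 137 in IDPN, and the groups overlapped.

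Of the other BAG proteins none was called with all libraries, where 5.75% of all tested genes were. Bag2, which inhibits the ubiquitin ligase CHIP, had 1719, 1591 and 2142 normalized counts in Control and 1315, 1280.1 and 1202 in IDPN. The groups did not overlap, and its log2-Fold_Change of -0.52 (SE 0.17, DESeq2 Padj = 0.0418) passed the Padj threshold but not the fold threshold. Without Control 3 the DESeq2 Padj was 0.0948. Leaving out Control 2 made Bag2 a downregulated call (-0.61, DESeq2 Padj = 0.0353), in a fit with 439 such calls among 17433 genes. Bag4, Bag5 and Bag6 had log2-Fold_Changes of 0.19, -0.05 and 0.35. Hspbp1, another nucleotide exchange factor of HSP70, had 904, 1080.3 and 1150.4 in Control and 1002, 963 and 875 in IDPN, with overlapping groups. Small HSPs were not called with all libraries. DESeq2 gave a p for 5 of them, Hspb1 left out, and edgeR for 5, Hspb1 included. In each tool 0 of these had an unadjusted p under 0.05. Hspb6 had 796, 1073 and 769 in Control and 926, 963 and 1073 in IDPN, and Hspb2 and Hspb7 had log2-Fold_Changes of 0.09 and 0.05.

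The chaperone network outside these symbols was read from lists of 36 genes, of which 35 were tested. None was called in either direction, where 5.75% of all tested genes were. With all libraries 12 were higher and 23 lower, where 48.4% of all tested genes were lower, and under total-count scaling 25 were higher and 10 lower. DESeq2 gave an unadjusted p under 0.05 for 2 of the listed genes, Fkbp5 and Ptges3, and edgeR gave it for 0 and called 0. Hsf1 had 796, 774 and 1019.6 normalized counts in Control and 977, 874 and 746 in IDPN, and its log2-Fold_Change was 0.00 (SE 0.19, DESeq2 Padj = 0.997). The HSP90 co-chaperones Stip1 (HOP, which bridges HSP70 and HSP90), Ahsa1 (which stimulates its ATPase) and Chordc1 ranked 13, 16 and 9 of 11770 in Control 3. Stip1 had 6786, 6331 and 24543 in Control and 11119, 9183 and 7112 in IDPN, with IDPN 1 next to Control 3. The 8 subunits of the cytosolic chaperonin TRiC all had negative values between -0.27 and -0.06, and they were 1 positive and 7 negative without Control 3 and 5 positive and 3 negative under total-count scaling. Fkbp5, an HSP90 co-chaperone and glucocorticoid target, had 17, 66.9 and 94.3 in Control and 139.9, 117 and 109 in IDPN and was the only call without Control 3 (1.54, DESeq2 Padj = 0.033), from low counts. The lens and stress chaperone Cryab had 8664, 8231 and 10165 in Control and 8464, 9599.5 and 8489 in IDPN, and its log2-Fold_Change was -0.03 (SE 0.15, DESeq2 Padj = 0.963).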

How the data were processed

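RNA-seq measured 3 Control and 3 IDPN libraries made with SMART-seq2, which copies polyadenylated RNA and carries neither strand nor molecular identifiers, so a read is not 1 molecule. Reverse transcription used 6 to 11 ng of RNA, with 8 and 12 PCR cycles. Per the study's methods, the authors mapped paired reads to GRCm38 with STAR 2.5.3a and estimated counts per gene with RSEM 2.3.0 (GENCODE M15). The deposited expected counts (estimated counts) are whole numbers with no normalization. RSEM splits reads shared by near-identical genes.

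The whole table was fitted with DESeq2 1.42.0 in R 4.3.3 (Wald test, median-of-ratios size factors, no covariate, Cook's distance and independent filtering on), with Benjamini-Hochberg adjustment over all genes (Padj). A call needed Padj under 0.05 and a fold change above 1.5, the thresholds the study names. Alternatives were edgeR 4.0.16 (quasi-likelihood, TMM), other size factors, filters, a table of protein-coding genes and fits without each library in turn. The fits without Control 3 and IDPN 2 together, and edgeR without Control 3, were chosen after seeing the data. The code was tested on simulated counts. Replicates are separate animals.

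Members and gene lists were chosen with earlier results of these data known. Named with library values were called members, 13 heat-inducible members, the 10 highest per kilobase, members of at least 100 normalized counts whose groups did not overlap (at most 10) or without a p-value, Dnajb13, Hspb11 and Hsf1. Other members were named for comparison after their values were seen. Gene models came from GENCODE M21, in which all 80 members were found, and promoter windows from RefSeq (GRCm38.p6), the same build as the files.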

Additional observations from a re-analysis of the deposited data

How the results depend on the processing

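Upregulated genes over the whole table numbered 410, against 166 with edgeR and TMM factors, 171 with edgeR and DESeq2 size factors, 220 with edgeR without Control 3, and 234 to 611 when 1 library was left out. Downregulated genes numbered 604, against 357, 373 and 352 in the same edgeR fits, 214 under total-count scaling (609 upregulated, so that the balance of calls turned), which raised the median log2-Fold_Change to 0.27, and 436 to 720 when 1 library was left out. Members called upregulated were 2, against 1 in each of the 3 edgeR fits and 1 to 4 when 1 library was left out. Members called downregulated were 2, against 1 under total-count scaling and with edgeR without Control 3, 4 without Control 3 and IDPN 2, and 1 to 3 when 1 library was left out. Genes of the pathway lists called upregulated were 0, and 0 to 1 when 1 library was left out. Of 405 comparisons of a named member with an alternative, 352 kept direction and side of the threshold, 38 changed sign, 11 lost a call and 4 gained one in the same direction. Of those that changed sign 3 were also new calls, all of Hspa1a in the fits without Control 3, so that 7 gained a call. Values that changed sign were, under total-count scaling, Dnaja2 0.0762, Dnajc14 0.16, Dnajc9 0.0497, Hspa9 0.13; without Control 3 and IDPN 2, Dnaja1 0.34, Hsp90aa1 0.20, Hsp90ab1 0.0541, Hspa1a 1.28, Hspa1b 1.79, Hspb1 0.17, Hspd1 0.19, Hspe1 0.11, Hsph1 0.57; and with edgeR without Control 3, Bag3 0.0533, Dnaja1 0.57, Hsp90aa1 0.24, Hsp90ab1 0.12, Hspa1a 1.27, Hspa1b 1.53, Hspb1 0.37, Hspd1 0.24, Hspe1 0.0954, Hsph1 0.52. Over the fits that left out 1 library the log2-Fold_Changes that changed sign ranged as follows: Bag3 -0.59 to 0.0461, Dnaja1 -0.68 to 0.56, Dnajb1 -0.27 to 0.77, Hsp90aa1 -0.68 to 0.23, Hsp90ab1 -0.44 to 0.12, Hspa1a -3.01 to 1.26, Hspa1b -3.12 to 1.53, Hspa8 -0.0607 to 0.39, Hspb1 -2.02 to 0.36, Hspb8 -0.00635 to 0.80, Hspd1 -0.51 to 0.23, Hspe1 -0.997 to 0.0863, Hsph1 -1.59 to 0.50. The positive values of Bag3, Dnaja1, the Hsp90 genes, Hspa1a, Hspa1b, Hspb1, Hspd1, Hspe1 and Hsph1 came without Control 3, the negative values of Dnajb1 and Hspb8 without IDPN 2, and those of Hspa8 without Control 1, Control 2 or IDPN 2; beyond the library left out, the cause was not tested. No paired analysis was possible because the labels give no replicate numbers shared between the groups. The low members Dnajb3, Dnajb7 and Hspa1l had SEs of 0.65, 1.09 and 0.59 on the log2 scale.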
